A study of Mus musculus with 13 samples.

Results

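The cells compared were 2 macrophage-like subsets that arise from mouse bone marrow under different growth factors. The non-DCs were the CD115+ CX3CR1+ cells within the cDC2 gate of FL-BM culture (2 libraries), and the GM-Macs were the macrophage subset of GM-BM culture (2 libraries). These 4 libraries of the 13 in the series were chosen by their sample labels, with no use of their values, and every gene was read. The series holds RNA-seq of 7 subsets sorted from bone marrow of C57BL/6 mice at 8 to 14 weeks of age, cultured for 8 to 10 days. FL-BM culture contained FLT3L, a growth factor of cDCs, at 10 μg/ml. GM-BM culture contained GM-CSF, a growth factor of granulocytes and macrophages, at 0.5 μg/ml. By the study's gating, non-DCs were MHCII-high, CD24-low or negative, CD172α+, CD83-, CD115+ and CX3CR1+. GM-Macs were CD11b-high and MHCII-intermediate. These proteins, among them the products of Cd24a, Sirpa, Itgam and Cx3cr1, were therefore part of how the cells were sorted. A difference in RNA of their genes is partly fixed by the gates. CD115 is the product of Csf1r, and F4/80 is the product of Adgre1. The paper found the expression profile of the non-DCs close to that of GM-Macs, and it concluded that the non-DCs are precursors of cDC2s. In its experiments the non-DCs became cDC2s in co-culture. They arose from DC precursors and progenitors but not from monocytes. Both non-DC libraries came in 1 table with the FL-cDC2 libraries, and the 2 GM-Mac libraries in separate tables. Culture, sorted subset and deposited table therefore coincide between the subsets, and their contributions to a difference cannot be told apart. RNA was extracted 2 times per subset, but no source used here states if the 2 extractions of a subset were from separate cultures or mice. The p-values therefore cover the spread between the libraries at hand, and that spread may be technical. In bulk RNA of a sorted subset, fewer cells with a transcript and less of it per cell cannot be told apart.

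Macrophages depend on CSF1 or GM-CSF, and both factors act through receptors that change gene expression in different ways. GM-CSF binds a receptor that shares the beta chain Csf2rb and signals through STAT5, whose targets include the feedback inhibitors Cish and Socs2. Type I interferon acts through a transcription factor complex that binds the interferon-stimulated response element (ISRE) in promoters. Irf7, itself an interferon-stimulated gene, encodes a transcription factor that amplifies interferon production.

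The promoters of 6 interferon-stimulated genes that rose and of 2 genes that fell in non-DCs are shown as examples, each with a match upstream of the start. The sequences are from RefSeq on GRCm38.p6, each a stretch upstream of the annotated start, 5′ to 3′ on the gene's strand. Capitals mark the ISRE core, searched on both strands as GAAA, any 2 bases and GAAA, in the first 6, and the STAT5 site, searched as TTC, any 3 bases and GAA, in the last 2.
Ifit1 (chr19:34640765-34640833, plus strand): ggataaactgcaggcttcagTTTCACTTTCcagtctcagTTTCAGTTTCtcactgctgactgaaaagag
Ifit3 (chr19:34583353-34583436, plus strand): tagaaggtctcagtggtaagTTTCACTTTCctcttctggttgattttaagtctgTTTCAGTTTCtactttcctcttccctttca
Ifit3b (chr19:34607749-34607832, plus strand): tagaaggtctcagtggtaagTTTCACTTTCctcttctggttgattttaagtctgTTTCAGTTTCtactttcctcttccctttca
Rsad2 (chr12:26456543-26456592, minus strand): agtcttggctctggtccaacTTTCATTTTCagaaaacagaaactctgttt
Gbp2 (chr3:142620584-142620633, plus strand): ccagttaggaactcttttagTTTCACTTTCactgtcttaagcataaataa
Slfn5 (chr11:82951927-82951976, plus strand): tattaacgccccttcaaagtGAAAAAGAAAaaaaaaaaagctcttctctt
Chil3 (chr3:106167708-106167756, minus strand): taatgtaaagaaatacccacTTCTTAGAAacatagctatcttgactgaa
Socs3 (chr11:117969492-117969540, minus strand): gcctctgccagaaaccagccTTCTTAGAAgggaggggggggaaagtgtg
The stretch of Ifit3 and that of Ifit3b, near-identical neighbouring genes, were the same letters. The windows searched ran from 250 bases before to 50 after each start and held 27025 genes. An ISRE core was present in 3.99% of all genes and in 20 of the 33 interferon-stimulated genes that matched a window. Among genes that rose it was present in 14 of 24, and among genes that did not pass the test in 6 of 9. The STAT5 site was present in 9.55% of all genes, in 2 of 17 matched genes of the alveolar macrophage and GM-CSF response list and in 3 of 17 of the growth factor receptor and signaling list. Cish had its matches within the first bases after the start and not upstream. A match is a description of letters, and it does not show that a factor binds there.

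Levels are FPKM as the authors computed them, that is, mapped fragments scaled to the length of the transcript and to the depth of the library. Fold changes are non-DC over GM-Mac on the log2 scale, with a standard error, from edgeR's quasi-likelihood test on the deposited counts with Benjamini-Hochberg adjustment. A gene is said to have risen or fallen in non-DCs where its adjusted p was under 0.05. Reads in genes totalled 55015325 and 46931064 in non-DCs, and 62529204 and 46042095 in GM-Macs. Where no read was counted, the limit taken was 3 reads per library, equal to 0.0545 and 0.0639 CPM in non-DCs and 0.0480 and 0.0652 CPM in GM-Macs. These floors cover counting error only, since reads of PCR-amplified cDNA are not independent molecules. A fold given below as "at least" sets the mean CPM of the subset with reads over the mean limit of the other. For a single library the fold can be smaller. Of 14936 genes tested, 1388 rose (9.29%) and 1669 fell (11.2%), 20.5% in either direction. In 1387 of the 1388 that rose, FPKM did not overlap between the subsets, so absence of overlap adds little to such a call. Of these calls 45.4% were higher in non-DCs, and 32.1% with scaling by library size alone. The biological coefficient of variation was 19.0% between the 2 non-DC libraries and 48.2% between the 2 GM-Mac libraries. It was 35.9% in the fit of all 13 libraries. The p-values rest on that shared spread, which is below that of the GM-Mac pair and above that of the non-DC pair. The count of genes that rose was 503 without non-DC library 1, 333 without non-DC library 2, 1446 without GM-Mac library 1 and 646 without GM-Mac library 2. The count that fell was 511 without non-DC library 1, 419 without non-DC library 2, 1630 without GM-Mac library 1 and 1180 without GM-Mac library 2. These fits test a subset with 1 library, which is assumed to vary like the other subsets.

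One property moved with the whole contrast and stands beside every result below. Genes with GC-poor transcripts were higher in non-DCs and genes with GC-rich transcripts were lower. Over 9784 genes that averaged 1 FPKM or more over the 4 libraries, the log2 fold change had a Spearman's rho of -0.46 with GC content and of 0.19 with transcript length. This is a description across genes, which share libraries, and carries no p. In the lowest of 5 equal groups by GC content, 29.3% rose and 3.32% fell, with a median log2 fold change of 0.63. In the highest group, 2.40% rose and 26.3% fell, with a median of -0.66. Transcript length also separated libraries of the same subset, with a rho of -0.44 for the difference between the 2 non-DC libraries and of 0.53 for the 2 GM-Mac libraries. A fit that corrects each library for GC content and length was added after this was seen. It called 1552 genes higher (10.4%) and 1587 lower (10.6%), 21.0% in either direction, of which 877 and 1190 were called in the same direction by the uncorrected fit, and none was called in opposite directions by the 2 fits. Below, "kept under the GC and length correction" means a call in the same direction in that fit. Each count of a gene list is to be read beside the shares over all genes tested. In the uncorrected fit these were 9.29% higher and 11.2% lower.

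**Figure D1:**
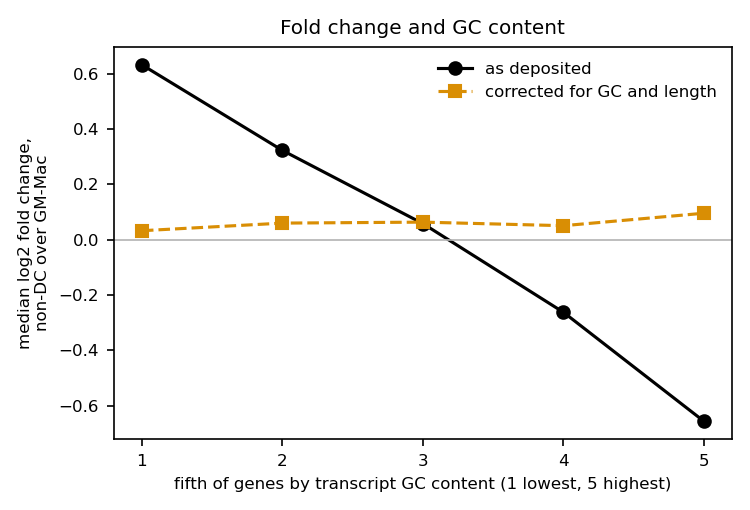
Median log2 fold change of non-DC over GM-Mac (vertical axis) in 5 equal groups of 9784 genes ordered by transcript GC content (horizontal axis), from the uncorrected fit (circles) and from the fit corrected for GC content and length (squares). The uncorrected median runs from 0.63 in the lowest group to -0.66 in the highest, and the corrected medians lie between 0.03 and 0.10.

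The 4 marker genes given for this contrast separated the subsets in both directions. Adgre1, which encodes the macrophage antigen F4/80 (Entrez gene 13733, chromosome 17 from 57358581 to 57483529 in GRCm38.p6), was at 667 and 713 FPKM in non-DCs, against 128 and 83.5 FPKM in GM-Macs. The non-DC libraries both lay above the GM-Mac libraries (log2 fold change 2.87 ± 0.49, adjusted p = 0.0039). Irf7 (Entrez gene 54123, chromosome 7 from 141263183 to 141266499) was at 81.2 and 73.3 FPKM in non-DCs, against 5.75 and 6.88 FPKM in GM-Macs, again without overlap (log2 fold change 3.75 ± 0.30, adjusted p = 1.3e-04). Chil3, a chitinase-like protein of alveolar and alternatively activated macrophages (Entrez gene 12655, chromosome 3 from 106147554 to 106167564), was at 0.332 and 0.0745 FPKM in non-DCs, against 1315 and 348 FPKM in GM-Macs. The non-DC libraries held 29 and 6 Chil3 reads and the GM-Mac libraries 128139 and 25013 (log2 fold change -11.72 ± 1.33, adjusted p = 0.0011). Fn1, the matrix protein fibronectin (Entrez gene 14268, chromosome 1 from 71585473 to 71653280), was at 5.61 and 9.91 FPKM in non-DCs, against 538 and 207 FPKM in GM-Macs (log2 fold change -5.41 ± 0.92, adjusted p = 0.0049), with adjusted p = 0.058 without non-DC library 1. All 4 calls were kept under the GC and length correction. The change was also set against that of mature FL-cDC2s over GM-DCs, another pair of an FL-BM and a GM-BM subset, as a contrast of the 2 log2 fold changes in the same fit. That contrast was positive and past the test in 793 genes (5.31%) and negative and past it in 478 (3.2%), 8.51% together. It was 6.05 ± 0.70 for Adgre1 (adjusted p = 9.2e-04) and -2.32 ± 0.39 for Irf7 (adjusted p = 0.0059). Chil3 (-2.86 ± 1.77, adjusted p = 0.37) and Fn1 (0.56 ± 1.10, adjusted p = 0.84) did not pass it.

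The subsets shared the macrophage genes Csf1r, Lyz2 and Cd68 at levels that did not pass the test. Csf1r was at 1157 and 1243 FPKM in non-DCs, against 1195 and 524 FPKM in GM-Macs (log2 fold change 0.66 ± 0.54, adjusted p = 0.41), so 1 GM-Mac library lay between the non-DC libraries and the other below them. Lyz2, the lysozyme of myeloid cells and the gene with most reads in all 4 libraries, was at 40595 and 35472 FPKM in non-DCs, against 31569 and 60823 FPKM in GM-Macs (log2 fold change -0.15 ± 0.47, adjusted p = 0.88). Cx3cr1, the fractalkine receptor, was at 161 and 89.9 FPKM in non-DCs, against 45.4 and 17.7 FPKM in GM-Macs and did not pass despite the absence of overlap (log2 fold change 2.17 ± 0.87, adjusted p = 0.10). The level of Sirpa, an inhibitory receptor by which cDC2s were gated, stood at 603 and 643 FPKM in non-DCs, against 427 and 183 FPKM in GM-Macs (log2 fold change 1.21 ± 0.37, adjusted p = 0.041), and it lost the call with adjusted p = 0.12 without non-DC library 1, 0.18 without non-DC library 2 and 0.18 without GM-Mac library 2. Itgax, which encodes CD11c, was at 24.4 and 28.2 FPKM in non-DCs, against 80.1 and 54.5 FPKM in GM-Macs (log2 fold change -1.19 ± 0.26, adjusted p = 0.011), with adjusted p = 0.096 without non-DC library 1 and 0.070 without non-DC library 2. The cDC1 gating marker Cd24a, whose protein was low or absent in non-DCs by the gate, stood at 0.488 and 0.256 FPKM in non-DCs, against 41.9 and 34.6 FPKM in GM-Macs (log2 fold change -6.48 ± 0.45, adjusted p = 6.0e-05). Cd83 did not pass, at 84.99 and 90.9 FPKM in non-DCs, against 112 and 45.1 FPKM in GM-Macs. Itgam, which encodes CD11b, did not pass either, at 125 and 151 FPKM in non-DCs, against 329 and 123 FPKM in GM-Macs. Expression of H2-Ab1, an MHCII chain, was at 8549 and 6546 FPKM in non-DCs, against 2839 and 7621 FPKM in GM-Macs and did not pass in the uncorrected fit (log2 fold change 0.65 ± 0.46, adjusted p = 0.35). In the corrected fit it rose (1.59 ± 0.30, adjusted p = 0.0063).

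**Figure D2:**
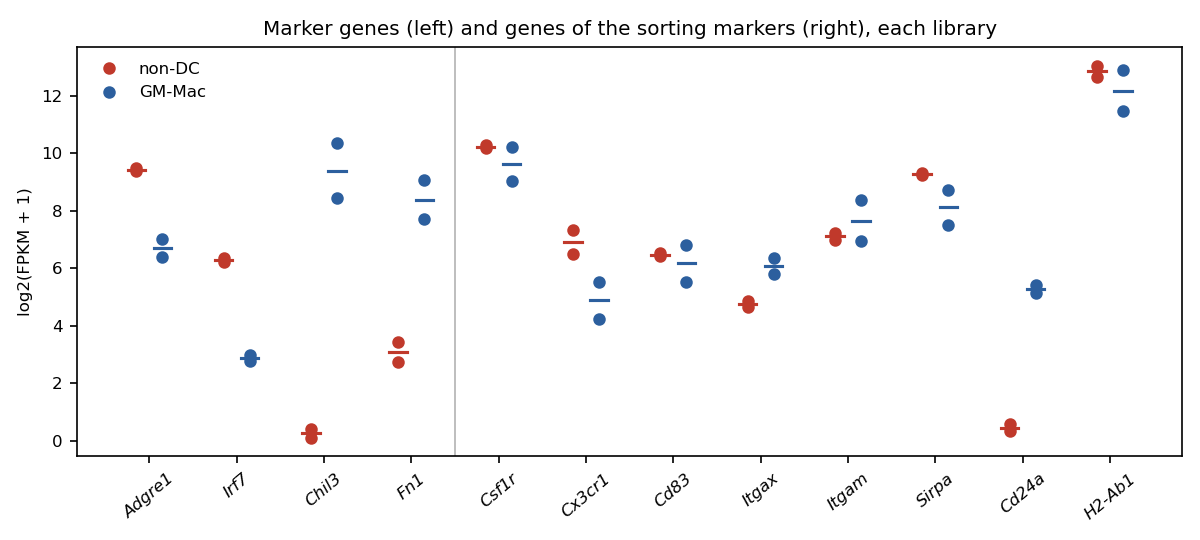
Each point is the log2(FPKM + 1) of 1 library, red for non-DCs and blue for GM-Macs, with a line at the mean of the 2 values. The 4 marker genes (left of the grey line) do not overlap between the subsets, whereas Csf1r, Cd83, Itgam and H2-Ab1 do.

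Markers of cDCs and of other cells were mixed. Zbtb46, a transcription factor of cDCs, was at 1.80 and 1.53 FPKM in non-DCs, against 6.63 and 1.82 FPKM in GM-Macs. Flt3, the FLT3L receptor, was at 0.635 and 0.381 FPKM in non-DCs, against 0.913 and 0.111 FPKM in GM-Macs. Neither gene passed the test. The paper compared the non-DCs with immature cDC2s of FL-BM culture instead, and found a Zbtb46 reporter similarly high in them. Cd3e, Cd3d, Ncr1, Eomes, Mcpt8 and Hbb-bs, defining genes of T cells, NK cells, basophils and red cells, had 0 reads in all 4 libraries. Other members of such lists were present. Over all genes tested 9.29% were higher and 11.2% lower, and a count near those shares, such as 1 of 10, is not a result about a list. The T cell list summed to 72.7 and 82.6 FPKM in non-DCs, against 21.8 and 19.6 FPKM in GM-Macs, with 3 of 10 tested genes higher and 1 lower. Most of that sum was Il7r, the interleukin-7 receptor, at 51.1 and 65.4 FPKM in non-DCs, against 20.6 and 19.2 FPKM in GM-Macs. The B cell list summed to 84.3 and 70.3 FPKM in non-DCs, against 28.3 and 35.4 FPKM in GM-Macs, with 1 of 10 higher and 2 lower. The neutrophil list summed to 424 and 546 FPKM in non-DCs, against 489.7 and 392.2 FPKM in GM-Macs, with 1 of 10 higher and 2 lower, and most of it was the collagenase Mmp8. The pDC list, which includes Irf7, summed to 142 and 119.7 FPKM in non-DCs, against 63.6 and 95.6 FPKM in GM-Macs, with 4 of 11 higher and 3 lower. Pf4, a platelet chemokine that myeloid cells also express, was at 14.7 and 16.1 FPKM in non-DCs, against 387 and 734 FPKM in GM-Macs, while Gp9, a defining platelet gene, had 0 reads in all 4. The cDC lineage list summed to 543 and 509 FPKM in non-DCs, against 1293 and 1096 FPKM in GM-Macs, and 8 of its 23 genes fell while none rose in edgeR. At an unadjusted p under 0.05 edgeR gave 3 higher and 9 lower, and DESeq2 gave 2 higher and 9 lower after adjustment. The number of cDC lineage genes lower was 3 without non-DC library 1, 2 without non-DC library 2, 6 without GM-Mac library 1 and 9 without GM-Mac library 2, and 3 were higher without GM-Mac library 1. Among those that fell Ccr7, a homing receptor of mature DCs, was at 23.7 and 13.1 FPKM in non-DCs, against 340.3 and 75.4 FPKM in GM-Macs, and its call was lost with adjusted p = 0.063 without non-DC library 1, 0.12 without non-DC library 2 and 0.059 without GM-Mac library 1. The part of these cells in the results below was not tested.

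Of the 37 lists, the interferon-stimulated genes had the largest number of members higher in non-DCs, while the Ms4a family had a larger share (7 of 9). The lists were chosen with earlier results of these data known, so this ranking is a description. The interferon-stimulated list was also the largest. Of 46 members, all tested, 28 rose, 1 fell and 17 did not pass, and the median log2 fold change was 1.54, against -0.09 over all genes tested. Under the correction 26 rose and 1 fell, with 21 genes called higher by both fits and a median of 1.22. Without each library in turn, the number that rose was 22 without non-DC library 1, 19 without non-DC library 2, 22 without GM-Mac library 1 and 25 without GM-Mac library 2. The members include antiviral effectors, sensors and guanylate-binding proteins.

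Ifit1, Ifit2, Ifit3 and Ifit3b encode proteins that bind viral RNA and belong to one multigene family, whose counts may be shared between the copies. Ifit1 was at 33.7 and 35.1 FPKM in non-DCs, against 2.37 and 2.04 FPKM in GM-Macs (log2 fold change 4.12 ± 0.27, adjusted p = 6.0e-05). Ifit2 was at 37.00 and 49.3 FPKM in non-DCs, against 1.19 and 1.36 FPKM in GM-Macs (log2 fold change 5.23 ± 0.75, adjusted p = 0.0017), and Ifit3 at 36.5 and 35.4 FPKM in non-DCs, against 1.16 and 1.25 FPKM in GM-Macs (log2 fold change 5.04 ± 0.61, adjusted p = 6.8e-04). In each of these genes both non-DC libraries lay above both GM-Mac libraries, as in 1387 of the 1388 genes that rose. In edgeR's contrast, the rise was not shown to differ from that of mature FL-cDC2s over GM-DCs for Ifit2 (0.89 ± 0.92, adjusted p = 0.61). The same held for Ifit3b (-2.02 ± 0.90, adjusted p = 0.20). Cmpk2, a mitochondrial nucleotide kinase induced with Rsad2, was at 15.6 and 16.6 FPKM in non-DCs, against 1.71 and 1.17 FPKM in GM-Macs (log2 fold change 3.65 ± 0.42, adjusted p = 5.9e-04). Oasl1, an inhibitor of Irf7 translation, was at 9.35 and 9.55 FPKM in non-DCs, against 1.32 and 1.06 FPKM in GM-Macs (log2 fold change 3.14 ± 0.35, adjusted p = 5.3e-04). Gbp2, a guanylate-binding protein that acts on pathogen vacuoles, was at 341 and 349 FPKM in non-DCs, against 45.2 and 50.03 FPKM in GM-Macs (log2 fold change 3.01 ± 0.36, adjusted p = 6.2e-04). Slfn5 was at 14.9 and 15.2 FPKM in non-DCs, against 2.58 and 2.51 FPKM in GM-Macs (log2 fold change 2.72 ± 0.40, adjusted p = 0.0018). All of these were kept under the correction, whereas Rsad2, an antiviral enzyme, was not. Its levels were 11.04 and 10.8 FPKM in non-DCs, against 2.28 and 3.49 FPKM in GM-Macs (log2 fold change 2.06 ± 0.35, adjusted p = 0.0039, and 1.37 ± 0.44, adjusted p = 0.051 when corrected).

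Not every member of the list rose. Mx1, a dynamin-like antiviral protein, fell, at 1.08 and 1.58 FPKM in non-DCs, against 6.48 and 3.25 FPKM in GM-Macs (log2 fold change -1.70 ± 0.44, adjusted p = 0.023), with adjusted p = 0.15 without non-DC library 1, 0.086 without non-DC library 2 and 0.082 without GM-Mac library 1. Isg15, a ubiquitin-like modifier, did not pass in the uncorrected fit at 5.77 and 4.67 FPKM in non-DCs, against 1.17 and 2.41 FPKM in GM-Macs, and rose in the corrected one (2.66 ± 0.34, adjusted p = 0.0010). Ifi27l2a passed in neither, at 5.94 and 2.40 FPKM in non-DCs, against 10.2 and 58.4 FPKM in GM-Macs. Bst2, the tetherin gene, did not pass in the uncorrected fit and rose in the corrected one (0.68 ± 0.16, adjusted p = 0.015).

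**Figure D3:**
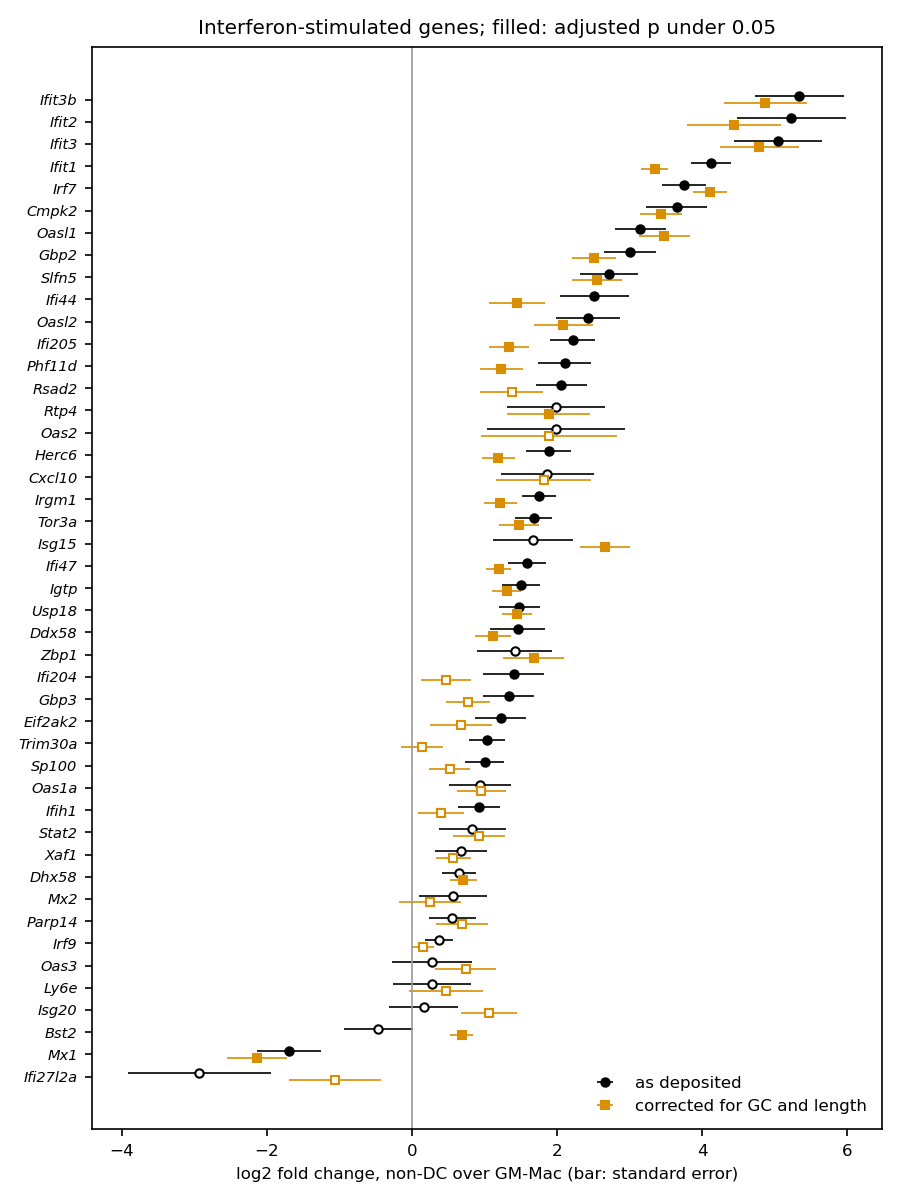
Log2 fold change of non-DC over GM-Mac for 45 of the 46 interferon-stimulated genes (bars, standard error), from the uncorrected fit (black circles) and the fit corrected for GC content and length (orange squares). Filled symbols have an adjusted p under 0.05: of the genes plotted, 27 higher and 1 lower uncorrected, 25 and 1 corrected.

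More genes of growth factor signaling fell than rose in non-DCs. In the list of haematopoietic growth factor receptors and their signaling, of 20 tested genes, 1 rose and 10 fell, and the corrected fit called 1 and 8. The number that fell was 4 without non-DC library 1, 4 without non-DC library 2, 8 without GM-Mac library 1 and 9 without GM-Mac library 2. Cish, an inhibitor of cytokine receptors, was at 0.571 and 0.953 FPKM in non-DCs, against 97.1 and 112 FPKM in GM-Macs (log2 fold change -6.96 ± 0.81, adjusted p = 6.0e-04). Socs2, an inhibitor of the same family, was at 1.25 and 1.95 FPKM in non-DCs, against 77.8 and 149.9 FPKM in GM-Macs (log2 fold change -6.05 ± 0.73, adjusted p = 6.7e-04). The libraries of the 2 subsets did not overlap in either gene. Csf2rb, the shared receptor chain, was at 87.9 and 97.9 FPKM in non-DCs, against 339.5 and 203 FPKM in GM-Macs (log2 fold change -1.38 ± 0.30, adjusted p = 0.012), with adjusted p = 0.096 without non-DC library 1 and 0.084 without non-DC library 2. Csf2rb2, its close paralog with which reads may be shared, was at 10.5 and 14.1 FPKM in non-DCs, against 77.4 and 45.9 FPKM in GM-Macs (log2 fold change -2.16 ± 0.38, adjusted p = 0.0045), with adjusted p = 0.052 without non-DC library 1. Socs3 fell in the uncorrected fit only, at 20.3 and 29.3 FPKM in non-DCs, against 89.1 and 55.3 FPKM in GM-Macs (log2 fold change -1.37 ± 0.34, adjusted p = 0.018, and -0.85 ± 0.29, adjusted p = 0.067 when corrected). Its uncorrected call was lost with adjusted p = 0.14 without non-DC library 1, 0.065 without non-DC library 2 and 0.072 without GM-Mac library 1. Csf2ra, the ligand-specific chain, did not pass, at 234 and 195 FPKM in non-DCs, against 313 and 418 FPKM in GM-Macs. Stat5a did not pass either, at 11.1 and 11.3 FPKM in non-DCs, against 15.1 and 8.33 FPKM in GM-Macs. Csf3r, the G-CSF receptor, was the member that rose (78.8 and 79.7 FPKM in non-DCs, against 15.1 and 7.96 FPKM in GM-Macs), and its call was lost with adjusted p = 0.085 without non-DC library 1, 0.10 without non-DC library 2 and 0.12 without GM-Mac library 2.

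Genes of alveolar macrophages and of the GM-CSF response also fell more often than they rose, with 7 of 20 tested genes lower, 2 higher and a median of -0.73, and 9 lower and 2 higher in the corrected fit. Over all genes tested 11.2% were lower and 9.29% higher in the uncorrected fit, and the number higher was near that share. The number lower was 5 without non-DC library 1, 4 without non-DC library 2, 7 without GM-Mac library 1 and 7 without GM-Mac library 2, and the number higher was 0 without non-DC library 1, 0 without non-DC library 2, 1 without GM-Mac library 1 and 3 without GM-Mac library 2. Car4, a carbonic anhydrase, had 0 reads in both non-DC libraries and 94.7 and 29.2 FPKM in GM-Macs, which is at least 1208-fold lower in non-DCs against 3 reads per library. Ear2, an eosinophil-associated ribonuclease of a multigene family, was at 0.162 and 0 FPKM in non-DCs, against 10.4 and 43.98 FPKM in GM-Macs (log2 fold change -8.06 ± 1.28, adjusted p = 0.0028). Siglecf, a lectin of alveolar macrophages, was at 0.847 and 0.632 FPKM in non-DCs, against 11.5 and 14.8 FPKM in GM-Macs (log2 fold change -4.00 ± 0.84, adjusted p = 0.0096), with adjusted p = 0.068 without non-DC library 1 and 0.097 without non-DC library 2. Ctsk, a cathepsin, went the other way at 42.8 and 47.2 FPKM in non-DCs, against 8.30 and 18.7 FPKM in GM-Macs, and its call was lost with adjusted p = 0.059 without non-DC library 1 and 0.089 without non-DC library 2.

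Among monocyte genes, of 22 tested genes, 3 rose and 9 fell, and in the corrected fit 5 rose and 7 fell. Over all genes tested 9.29% rose and 11.2% fell in the uncorrected fit. Monocyte genes lower numbered 3 without non-DC library 1, 4 without non-DC library 2, 7 without GM-Mac library 1 and 6 without GM-Mac library 2, and those higher 2 in each of these 4 fits. Ace, a peptidase, had 0 reads in non-DCs and 3.91 and 1.25 FPKM in GM-Macs, at least 194-fold lower. Clec4e, the mycobacterial glycolipid receptor Mincle, was the largest rise of the list at 1186 and 1092 FPKM in non-DCs, against 72.4 and 56.2 FPKM in GM-Macs (log2 fold change 4.31 ± 0.49, adjusted p = 5.9e-04). Treml4 also rose, at 3.17 and 2.31 FPKM in non-DCs, against 0.302 and 0.221 FPKM in GM-Macs (log2 fold change 3.49 ± 0.42, adjusted p = 6.3e-04). Clec4e and Treml4 are 2 of the 3 that rose, and most of the 9 that fell are not named in this paragraph. The monocyte markers Ccr2 and Plac8 did not pass in the uncorrected fit and did in the corrected one.

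Genes of tissue macrophages went both ways in non-DCs. Slc40a1, of iron handling, and Nr1h3, of lipid handling, were among those that rose. In the tissue-resident list, of 18 tested genes, 6 rose and 2 fell, with a median log2 fold change of -0.37. Over all genes tested 9.29% rose and 11.2% fell, so the number that fell was near that share. The complement gene C1qa, given below, was among those that fell. The list summed to 1374 and 1126 FPKM in non-DCs, against 3509 and 7448 FPKM in GM-Macs. A fit of the 4 libraries alone called 6 higher and 6 lower, and the replicate block in that fit 7 and 7. Tissue-resident genes higher numbered 4 without non-DC library 1, 4 without non-DC library 2, 6 without GM-Mac library 1 and 4 without GM-Mac library 2, and those lower 0 without non-DC library 1, 0 without non-DC library 2, 2 without GM-Mac library 1 and 2 without GM-Mac library 2. Timd4, a phosphatidylserine receptor for apoptotic cells, stood at 4.97 and 4.52 FPKM in non-DCs and had 0 reads in both GM-Mac libraries, at least 204-fold higher. Spic, the transcription factor of red pulp macrophages, was at 9.34 and 8.37 FPKM in non-DCs, against 0.0430 and 0.371 FPKM in GM-Macs (log2 fold change 5.56 ± 0.75, adjusted p = 0.0017). Nr1h3, the oxysterol receptor LXR-alpha, was at 40.9 and 33.7 FPKM in non-DCs, against 1.71 and 2.12 FPKM in GM-Macs (log2 fold change 4.44 ± 0.37, adjusted p = 1.4e-04). Slc40a1, the iron exporter ferroportin, was at 23.2 and 29.5 FPKM in non-DCs, against 0.880 and 2.03 FPKM in GM-Macs (log2 fold change 4.30 ± 0.56, adjusted p = 0.0010). Tfrc, the transferrin receptor, is from the NADPH oxidase and iron list. It was at 46.8 and 60.7 FPKM in non-DCs, against 2.28 and 1.72 FPKM in GM-Macs (log2 fold change 4.91 ± 0.51, adjusted p = 4.4e-04). These 5 were called in the corrected fit too, and in each fit without 1 library. The separate lipid handling list did not rise with Nr1h3. Of its 23 tested genes, 3 rose and 5 fell, and 2 and 4 in the corrected fit. Abcg1, a target of Nr1h3 given under other observations, fell.

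Genes of macrophage identity did not move together. Of 25 macrophage core genes, 6 rose and 3 fell. Over all genes tested 9.29% rose and 11.2% fell, so the number of core genes that fell was near that share. Core genes higher numbered 2 without non-DC library 1, 1 without non-DC library 2, 4 without GM-Mac library 1 and 3 without GM-Mac library 2, and those lower 0 without non-DC library 1, 1 without non-DC library 2, 3 without GM-Mac library 1 and 2 without GM-Mac library 2. C1qa, a complement subunit of the tissue-resident list, was at 71.3 and 56.4 FPKM in non-DCs, against 532 and 1329 FPKM in GM-Macs (log2 fold change -3.74 ± 0.98, adjusted p = 0.027) and did not pass under the correction. Its call was also lost with adjusted p = 0.13 without non-DC library 1, 0.18 without non-DC library 2 and 0.10 without GM-Mac library 2. The related C1qb and C1qc did not pass in either fit. Among macrophage transcription factors, of 28 tested genes, 4 rose and 9 fell, and those lower numbered 3 without non-DC library 1, 3 without non-DC library 2, 8 without GM-Mac library 1 and 6 without GM-Mac library 2.

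In 3 lists of pattern recognition and membrane receptors more genes rose than fell. Of 21 tested Toll-like receptors and co-receptors, 7 rose and none fell in edgeR's uncorrected fit, and 6 rose and 1 fell in the corrected one. At an unadjusted p under 0.05 edgeR gave 11 higher and 0 lower, and DESeq2 gave 10 and 0 after adjustment. The number of these genes that rose was 1 without non-DC library 1, 2 without non-DC library 2, 10 without GM-Mac library 1 and 3 without GM-Mac library 2. Tlr1, which pairs with Tlr2 to sense lipopeptides, was at 45.4 and 52.1 FPKM in non-DCs, against 2.09 and 2.58 FPKM in GM-Macs (log2 fold change 4.58 ± 0.58, adjusted p = 8.9e-04). Its reads may be shared with Tlr6. Tlr2 did not pass in the uncorrected fit, at 353 and 377 FPKM in non-DCs, against 280.2 and 109 FPKM in GM-Macs, and rose in the corrected one (0.84 ± 0.26, adjusted p = 0.0497). Tlr4, the lipopolysaccharide receptor, passed in neither, at 25.4 and 26.7 FPKM in non-DCs, against 45.04 and 18.1 FPKM in GM-Macs. In the Ms4a family of tetraspanning membrane proteins, 7 of 9 tested genes rose and none fell in edgeR, with 7 higher and 2 lower at an unadjusted p under 0.05 and 7 and 1 in DESeq2 after adjustment. Under the correction 6 were kept, and the number that rose was 4 without non-DC library 1, 3 without non-DC library 2, 3 without GM-Mac library 1 and 5 without GM-Mac library 2. Ms4a6b was at 106 and 94.7 FPKM in non-DCs, against 2.13 and 2.28 FPKM in GM-Macs (log2 fold change 5.65 ± 0.58, adjusted p = 3.6e-04), and Ms4a7 at 291 and 286 FPKM in non-DCs, against 21.3 and 34.2 FPKM in GM-Macs (log2 fold change 3.51 ± 0.61, adjusted p = 0.0043). The rise of Ms4a6b was not shown to differ from that of mature FL-cDC2s over GM-DCs (contrast -0.01 ± 0.37, not past the test). Among inhibitory and paired receptors 9 rose and 1 fell of 28, and all 10 were kept under the correction, which called 9 higher and 5 lower in all. Receptors of this list that rose numbered 5 without non-DC library 1, 5 without non-DC library 2, 8 without GM-Mac library 1 and 5 without GM-Mac library 2. Clec4a1 was at 48.4 and 45.7 FPKM in non-DCs, against 2.78 and 5.28 FPKM in GM-Macs (log2 fold change 3.68 ± 0.76, adjusted p = 0.0092), and Pirb, an inhibitory receptor for MHC class I, at 427 and 441 FPKM in non-DCs, against 169 and 106 FPKM in GM-Macs (log2 fold change 1.83 ± 0.33, adjusted p = 0.0047).

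Among chemokine ligands and matrix genes more fell than rose. Of 21 tested chemokine ligands, 9 fell and 1 rose, with a median of -3.30, and the number that fell was 4 without non-DC library 1, 4 without non-DC library 2, 8 without GM-Mac library 1 and 6 without GM-Mac library 2. Ccl17 and Ccl22 are both ligands of Ccr4 and are also made by mature DCs. Ccl17 was at 0.175 and 0 FPKM in non-DCs, against 126 and 411 FPKM in GM-Macs (log2 fold change -11.32 ± 1.04, adjusted p = 3.4e-04). Ccl22 was at 8.77 and 4.49 FPKM in non-DCs, against 197 and 75.2 FPKM in GM-Macs (log2 fold change -4.18 ± 0.51, adjusted p = 7.3e-04). Ccl6 was at 612 and 809.7 FPKM in non-DCs, against 5820.2 and 11522 FPKM in GM-Macs (log2 fold change -3.48 ± 0.54, adjusted p = 0.0024). The log2 fold change of Pf4, given above, was -5.05 ± 0.51 (adjusted p = 5.2e-04). Arg1, the arginase of alternatively activated macrophages, was at 7.35 and 9.74 FPKM in non-DCs, against 3283 and 2119 FPKM in GM-Macs (log2 fold change -8.14 ± 0.76, adjusted p = 2.5e-04). Alox5, which makes leukotrienes, was at 1.46 and 2.17 FPKM in non-DCs, against 40.5 and 25.7 FPKM in GM-Macs (log2 fold change -4.02 ± 0.40, adjusted p = 4.8e-04). Ltb4r1, a receptor for leukotriene B4, was at 1.65 and 2.01 FPKM in non-DCs, against 50.5 and 43.4 FPKM in GM-Macs (log2 fold change -4.52 ± 0.49, adjusted p = 4.8e-04). Of 30 matrix, protease and coagulation genes, 10 fell and 2 rose, and the number that fell was 3 without non-DC library 1, 2 without non-DC library 2, 7 without GM-Mac library 1 and 9 without GM-Mac library 2. Spp1, osteopontin, was at 216 and 189 FPKM in non-DCs, against 1238 and 1084 FPKM in GM-Macs (log2 fold change -2.35 ± 0.30, adjusted p = 0.0010). Mmp9, a gelatinase, rose at 229.7 and 267 FPKM in non-DCs, against 42.8 and 4.18 FPKM in GM-Macs, a call lost with adjusted p = 0.082 without non-DC library 1, 0.11 without non-DC library 2 and 0.058 without GM-Mac library 2. Of 26 cell cycle genes none passed in edgeR, with 3 higher and 4 lower at an unadjusted p under 0.05 and 1 and 1 in DESeq2 after adjustment. Without GM-Mac library 1, 12 cell cycle genes were lower and 0 higher, and without GM-Mac library 2, 1 was higher and 0 lower. The complement factor Cfb rose, at 534 and 573 FPKM in non-DCs, against 64.2 and 70.5 FPKM in GM-Macs (log2 fold change 3.19 ± 0.37, adjusted p = 6.1e-04).

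**Figure D4:**
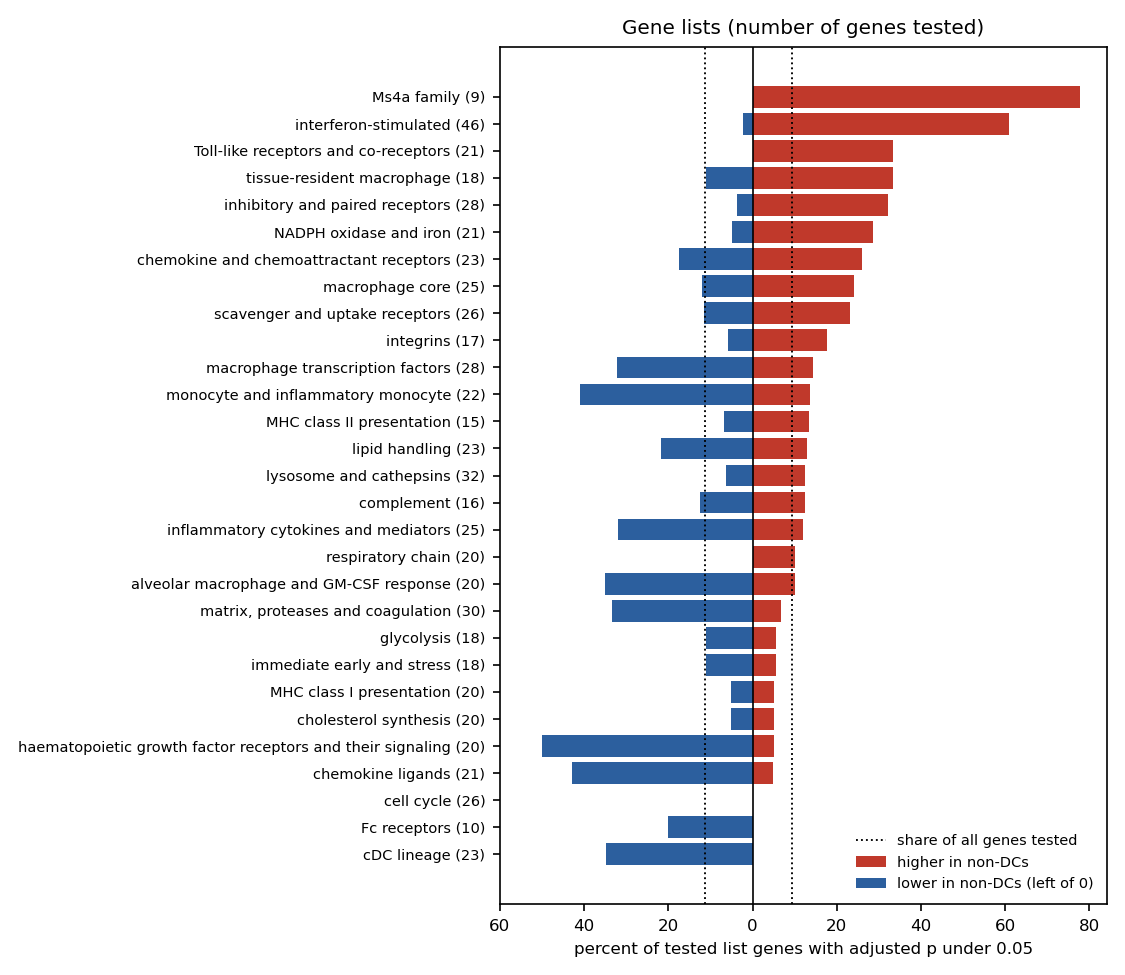
Percent of the tested genes of 29 lists that rose (red, right of 0) or fell (blue, left of 0) in non-DCs over GM-Macs at an adjusted p under 0.05, with the number tested in brackets. Dotted lines mark the shares over all genes tested, 9.29% and 11.2%, which the interferon-stimulated genes exceed on the right and the chemokine ligands on the left.

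The 15 largest changes in each direction, among genes that passed, averaged 10 FPKM or more in the subset with the higher level and did not overlap, were led by genes with no or few reads in one subset. Tubb2b, a beta-tubulin, was at 11.2 and 10.3 FPKM in non-DCs with 1198 and 935 reads, and had 0 reads in GM-Macs, at least 407-fold higher. Cd4, the T cell co-receptor that some mouse myeloid cells also express, was at 18.8 and 15.8 FPKM in non-DCs, against 0.0202 and 0 FPKM in GM-Macs (log2 fold change 10.65 ± 0.75, adjusted p = 1.2e-04), while Cd3e and Cd3d had 0 reads. Cadm1, an adhesion molecule, was at 53.2 and 38.6 FPKM in non-DCs, against 0.126 and 0.390 FPKM in GM-Macs (log2 fold change 7.52 ± 0.69, adjusted p = 2.5e-04). Cst7, a cathepsin inhibitor, was at 27.9 and 18.6 FPKM in non-DCs, against 0.481 and 0.0383 FPKM in GM-Macs (log2 fold change 6.58 ± 0.93, adjusted p = 0.0015). Mefv, which encodes pyrin, was at 24.2 and 23.9 FPKM in non-DCs, against 0.274 and 0.694 FPKM in GM-Macs (log2 fold change 5.76 ± 0.71, adjusted p = 7.3e-04). Ly9, a receptor of the SLAM family, was at 257 and 254 FPKM in non-DCs, against 8.64 and 5.96 FPKM in GM-Macs (log2 fold change 5.30 ± 0.62, adjusted p = 6.0e-04). Lox, which crosslinks collagen, was at 20.3 and 15.5 FPKM in non-DCs, against 0.468 and 0.488 FPKM in GM-Macs (log2 fold change 5.37 ± 0.49, adjusted p = 3.2e-04). The other 8 were Nxpe4, Ms4a4c, St8sia6, Ms4a6b, Tmem178, Ifit3b, Ifit2 and Slc6a20a, with log2 fold changes between 5.05 and 7.58.

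On the lower side, 8 of the 15 genes had 0 reads in both non-DC libraries. Nov, a secreted matricellular protein, was at 68.8 and 57.5 FPKM in GM-Macs, at least 2285-fold lower in non-DCs. Adra2a, an adrenergic receptor, was at 46.2 and 23.7 FPKM in GM-Macs, at least 2009-fold lower. By the mean of the GM-Mac libraries, Mucl1, Retnla, Car4, Rnase2a, Klk1b9 and Ceacam15 were at least 1546-, 1286-, 1208-, 1086-, 651- and 279-fold lower. Retnla, a secreted protein of alternatively activated macrophages, differed between the GM-Mac libraries at 19.8 and 250.1 FPKM, and its call was lost with adjusted p = 0.054 without non-DC library 1 and 0.060 without non-DC library 2. Nt5e, the ectonucleotidase CD73, was at 0 and 0.0236 FPKM in non-DCs, against 27.1 and 2.04 FPKM in GM-Macs (log2 fold change -10.10 ± 1.69, adjusted p = 0.0057), with adjusted p = 0.052 without non-DC library 1. Asgr2, a galactose-binding lectin, was at 0 and 0.131 FPKM in non-DCs, against 63.4 and 123 FPKM in GM-Macs (log2 fold change -10.12 ± 1.11, adjusted p = 5.1e-04). Wfdc21, Klk1b1 and Klk1b11 fell by 9.38, 9.31 and 9.30 on the log2 scale, and the Klk1b kallikreins belong to a multigene family whose reads may be shared.

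**Figure D5:**
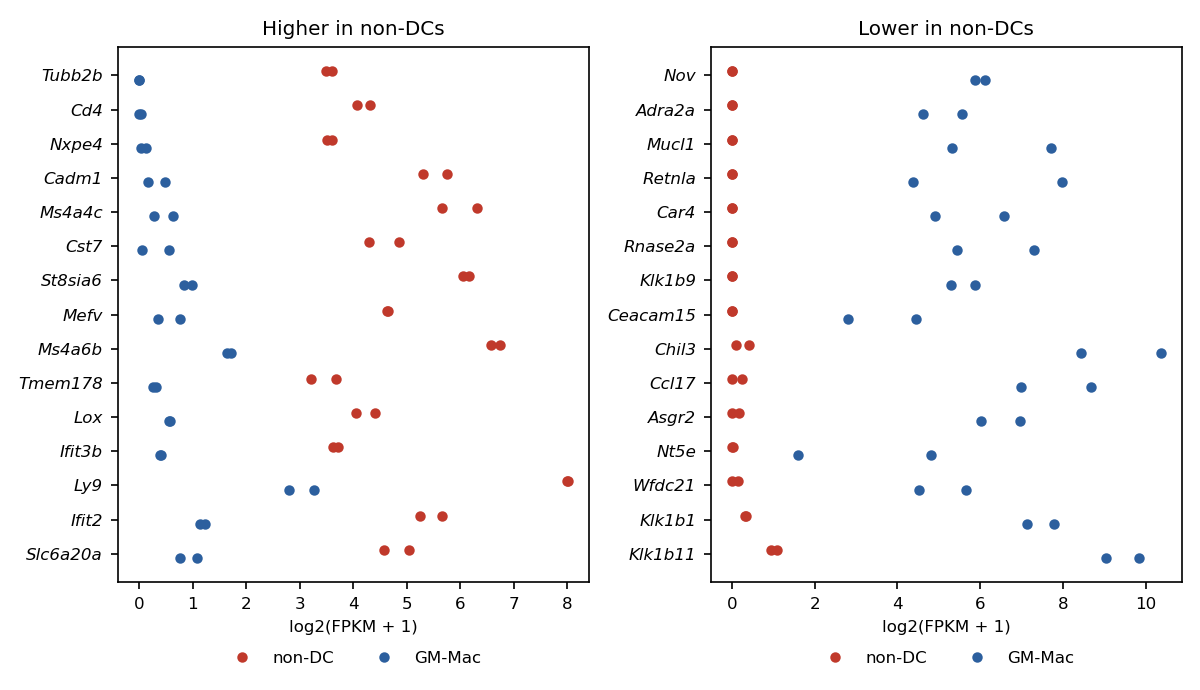
Log2(FPKM + 1) of each library for the 15 genes with the largest rise (left) and the 15 with the largest fall (right) in non-DCs over GM-Macs, red for non-DCs and blue for GM-Macs. The libraries of the 2 subsets do not overlap in any of the 30, as the choice of genes required.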

How the data were processed

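RNA was extracted from sorted subsets of bone marrow culture, and the authors sequenced cDNA amplified by PCR from low RNA input. The counts deposited by the authors are whole reads per gene, not normalized, for 24532 genes. The FPKM, also deposited by the authors for each library, divide by transcript length and library total, and levels set across tables rest on that scaling. For alignment the study's methods give HISAT 2.1.0, whereas STAR 2.6.0c and mm10 are listed in the submitters' processing notes, so the aligner is not settled. Both name StringTie 1.3.4d, and the notes add HTSeq, Trimmomatic and bcl2fastq 2.20.0. Whether strand was used is not given in the sources used here, so overlapping and antisense genes cannot be told apart, nor can reads shared by near-identical copies.

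Counts of all 13 libraries were fitted in R 4.3.3 with edgeR 4.0.16 (filterByExpr, TMM factors, quasi-likelihood test of non-DC over GM-Mac, Benjamini-Hochberg adjustment, threshold 0.05). Standard errors were obtained by dividing the log2 fold change by the root of its F statistic. The difference from the change of mature FL-cDC2s over GM-DCs was read as a contrast in the same fit. Alternatives used limma 3.58.1 on log2(FPKM + 1) and log2(FPKM + 0.1), DESeq2 1.42.0, other scalings and filters, a replicate block, each library left out, and, added after seeing the data, offsets for transcript GC content and length, fitted on 9900 genes with splines of 5 degrees of freedom (224 tested genes had no transcript match). The tests were also run on simulated counts that had the same spread in all libraries and no relation of the change to GC content. These data differ on both points, so that run cannot show how the tests behave here. The correlation of same-numbered deviations was -0.097 over 14936 genes. It cannot decide if same-numbered libraries shared a culture or batch. Transcript length differed in opposite directions between the libraries of the 2 subsets (rho -0.44 and 0.53), which enters this correlation.

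Genes named are the 15 largest changes in each direction that passed, with an average of 10 FPKM or more where higher and no overlap, the members of 37 lists (653 genes, 650 in the tables), the genes of the sorting markers and the 4 marker genes. The members and lists were chosen with earlier results of these data known. Promoters came from RefSeq GRCm38.p6, and 24462 genes matched its annotation by Entrez identifier. List members not named in the text enter the counts only.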

Additional observations from a re-analysis of the deposited data

Results flagged for a closer look

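The log2 fold change of non-DC over GM-Mac was set against that of mature FL-cDC2 over GM-DC, another pair of an FL-BM and a GM-BM subset, for 33 genes: the 30 with the largest changes and the markers. The difference between the 2 changes was tested as a contrast in edgeR's quasi-likelihood fit of 13 libraries. Of all genes tested, 8.51% passed. In 13 of the 33 genes a subset had 0 reads in both libraries, and these are not read here. In 11 of the other 20 the 2 changes differed. The contrast did not pass for Chil3, Fn1, Ms4a4c, Ms4a6b, Ifit2, Ifit3b, Slc6a20a, Asgr2 and Nt5e. For these a difference between the 2 pairs was not shown. The 30 genes were chosen for the size of the change in one of the pairs, so a difference between the pairs is partly fixed by that choice, and the calls are a description.

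Adgre1 differed by 6.05 ± 0.70 (adjusted p = 9.2e-04). It was at 8.54 and 4.02 FPKM in mature FL-cDC2s and at 36.0 and 89.9 FPKM in GM-DCs, so that it was higher in non-DCs than in GM-Macs and the other pair ran the opposite way. Irf7 differed by -2.32 ± 0.39 (adjusted p = 0.0059), with 52.6 and 59.7 FPKM in mature FL-cDC2s and 0.732 and 1.11 FPKM in GM-DCs, so it was higher in the FL-BM subset of both pairs and more so in the DC pair. Ccl17 differed by -6.03 ± 1.16 (adjusted p = 0.014), with 10.4 and 20.7 FPKM in mature FL-cDC2s and 614 and 744 FPKM in GM-DCs. For the genes that were higher in non-DCs, the difference was 7.14 ± 0.91 (adjusted p = 0.0014) for Mefv, 6.64 ± 0.98 (adjusted p = 0.0042) for Lox, 5.71 ± 0.82 (adjusted p = 0.0036) for Tmem178 and 5.13 ± 0.77 (adjusted p = 0.0034) for Ly9. It was 4.71 ± 1.19 (adjusted p = 0.036) for Cst7, 4.67 ± 0.61 (adjusted p = 0.0017) for Nxpe4, 2.93 ± 0.40 (adjusted p = 0.0020) for St8sia6 and 2.83 ± 0.77 (adjusted p = 0.048) for Cadm1. Under the GC and length correction, Cadm1 no longer passed (2.23, adjusted p = 0.11) and the other 10 did.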

How the results depend on the processing

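All counts are of genes at an adjusted p under 0.05, given for genes higher and then genes lower in non-DCs over GM-Macs. The main counts of 1388 and 1669 stayed within 1.5 times in 10 alternatives of fit, scaling, filter and tool and under the GC and length correction. The replicate block gave 1339 and 1505 in the fit of 13 libraries and 1208 and 1592 in the fit of 4. No source used here states that the replicate numbers pair these libraries. Scaling by library size alone gave 935 and 1974, so that 32.1% of calls were higher against 45.4%, and moved the median over all genes to -0.25 on the log2 scale, against -0.09. Limma gave 38.1% of calls higher with a pseudocount of 1 and 35.3% with 0.1. Leaving out 1 library gave 333 to 1446 higher and 419 to 1630 lower, with the fewest calls without a non-DC library. With the GC and length correction it gave 555 to 1382 higher and 530 to 1457 lower, of which 648 and 577 without non-DC library 1. The genes whose change differed from that of mature FL-cDC2s over GM-DCs numbered 1271, 2473 with DESeq2, 2226 and 2120 with limma at a pseudocount of 1 and 0.1, and 469 to 1570 without 1 library.

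Of the 30 largest changes, 28 passed in every alternative in which they were tested, and Retnla and Nt5e lost the call without a non-DC library. Of 228 named genes that passed, 131 lost the call when a library was left out. For named genes that did not pass in the main fit, a turned sign was counted only where it passed itself. Counted so, signs turned only under the GC and length correction. With it Il3ra was at 0.19 (0.29, 0.14 and 0.60 without non-DC library 1, non-DC library 2 and GM-Mac library 1) and Lrp1 at 0.34 (0.15 to 0.53 without 1 library, with 0.49 without GM-Mac library 1 and 0.20 without GM-Mac library 2), neither past the test. Bst2 (0.68, and 0.71 without GM-Mac library 2) and Atp5o (0.66, and 0.76) passed in the direction opposite to the uncorrected sign. With the correction and without GM-Mac library 2, Cd74 (1.07), Fcer1g (0.73), Ftl1 (1.02), Stmn1 (1.07) and Tk1 (1.81) did likewise. With it and without GM-Mac library 1, Nsdhl was at -0.91 and past the test, and Ifih1 (-0.037), Trim30a (-0.19) and Idi1 (-0.14) were below 0 and not past it. The cause was not tested. A pair of libraries in each subset limits the test, and the depth allows up to 3 reads where a count is 0.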

Other observations

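Cytosolic ribosomal protein genes, grouped by symbol (Rps and Rpl, with a mean of at least 10 FPKM over all libraries) after the values were seen, were lower in non-DCs. Of 84 genes, 67 fell and none rose in edgeR (1 higher and 76 lower at an unadjusted p under 0.05, and 1 and 74 in DESeq2 after adjustment), with a median log2 fold change of -2.29, and under the GC and length correction 66 fell, with a median of -1.57 and 60 genes called lower by both fits. Their summed level was 2430.4 and 1598 FPKM in non-DCs, against 7533 and 9079 FPKM in GM-Macs. Transcript GC content and length move with the contrast, and their part in this result beyond that correction was not tested.

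Several genes outside the main groups also differed. H2-Eb2, an MHCII beta chain gene of a family whose reads may be shared, was at 7.44 and 6.61 FPKM in non-DCs, against 0.0517 and 0 FPKM in GM-Macs (log2 fold change 7.98 ± 1.19, adjusted p = 0.0019). Pdia3, a disulfide isomerase of MHC class I loading, was at 547 and 648 FPKM in non-DCs, against 181 and 206 FPKM in GM-Macs (1.77 ± 0.26, adjusted p = 0.0018). Abcg1, a cholesterol exporter and a target of Nr1h3, was at 5.67 and 5.33 FPKM in non-DCs, against 34.8 and 28.2 FPKM in GM-Macs (-2.36 ± 0.22, adjusted p = 2.5e-04), opposite in direction to Nr1h3 itself. Respiratory chain genes rose in a share near that of all genes tested, with 2 of 20 against 9.29%. Under the correction 8 of the 20 rose, against 10.4% of all genes.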
